A study of Mus musculus with 12 samples.

Results

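The 33 genes described here encode the contractile machinery of smooth muscle and the channels, receptors and regulators that drive it. They were taken as a list of symbols and matched to probe sets whose annotation names exactly 1 gene, and the brightest probe set by its mean over all arrays stood for each gene. All 33 were measured, of 22180 genes in all, and no measured difference between genotypes entered the choice of probe set. The genes themselves were chosen with earlier results of these data known, so counts among them are descriptions beside the shares over all genes.

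Gene expression in mouse colon was read on 12 whole-transcript microarrays, with 3 arrays for each of 4 genotypes. These were IL10KO (IL10-/- STING+/+), DKO (IL10-/- STING-/-), SKO (IL10+/+ STING-/-) and WT (IL10+/+ STING+/+). Interleukin-10 is an anti-inflammatory cytokine whose loss in mice is a common model of colitis, and STING is the adaptor that relays the sensing of cytosolic DNA. The design sets the colon of the IL10KO mouse beside that of the mouse lacking both genes. The sources used here name neither the knockout alleles nor the strain, age, sex or stretch of colon. Each sample title carries its own number followed by M, which the labels do not explain and which was not read as an animal or a sex. With no statement that arrays of 1 genotype come from separate animals, each p-value reflects the spread among these samples alone, which may be technical. Values are log2 signals on the scale of the deposited table, and a level is never compared between genes, because each probe set has its own response.

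Smooth muscle of the gut wall contracts when calcium enters through voltage-gated channels or leaves internal stores, binds calmodulin and activates myosin light chain kinase, which phosphorylates the regulatory light chain of smooth muscle myosin. The thin filaments that myosin pulls on are anchored in dense bodies and at the plasma membrane, where dystrophin and its partners link the cytoskeleton to the matrix. Most of these genes are switched on together by serum response factor (SRF) and its muscle-restricted coactivator myocardin, acting through a short DNA element called the CArG box.

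The windows below show the CArG box in the promoters of 3 of the genes that were lower in IL10KO, and are printed because the box is the element through which SRF is known to act on this gene class. The box was searched by name as 2 C, then 6 bases that are each A or T, then 2 G, which reads alike on both strands. It was found in 4 of the 29 genes with a RefSeq promoter window (GRCm38.p6, around the annotated start), 13.8%, against 282 of 16918 tested genes with a window, 1.67%, and 535 of all 32851 windows, 1.63%. The genes were Myl9, Vcl, Dmd and Ldb3. Of genes called lower in IL10KO against WT 3 of 19 with a window held it, 15.8%, and of the others 1 of 10, 10%. Each sequence runs 5′ to 3′ over the 250 bases before the RefSeq start, with the box in capitals.
Dmd (chrX:82948620-82948869, + strand): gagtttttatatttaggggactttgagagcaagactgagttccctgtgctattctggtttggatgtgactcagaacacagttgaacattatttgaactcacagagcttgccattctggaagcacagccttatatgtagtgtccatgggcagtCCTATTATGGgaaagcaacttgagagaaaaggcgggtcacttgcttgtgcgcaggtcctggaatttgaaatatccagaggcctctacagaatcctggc
Vcl (chr14:20929148-20929397, + strand): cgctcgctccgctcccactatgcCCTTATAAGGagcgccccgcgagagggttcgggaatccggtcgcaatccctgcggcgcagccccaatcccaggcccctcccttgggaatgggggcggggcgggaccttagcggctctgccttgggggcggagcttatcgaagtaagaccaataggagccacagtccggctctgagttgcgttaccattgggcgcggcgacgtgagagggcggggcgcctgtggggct
Myl9 (chr2:156775214-156775463, + strand): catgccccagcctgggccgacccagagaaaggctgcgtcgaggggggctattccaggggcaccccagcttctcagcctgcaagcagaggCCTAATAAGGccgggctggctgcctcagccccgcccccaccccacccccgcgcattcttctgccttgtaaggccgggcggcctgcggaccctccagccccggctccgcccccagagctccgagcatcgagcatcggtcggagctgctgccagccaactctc
The box lies at -98 to -89 in Dmd, in 1 of its 2 windows, at -227 to -218 in Vcl and at -161 to -152 in Myl9, counted from the start. A match is a description of these letters, and a window without it says nothing about SRF at that gene.

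The targeted genes were read first. Sting1 gave 6.87, 8.09 and 7.33 on the IL10KO arrays, 4.23, 4.13 and 4.34 on the DKO arrays, 4.40, 4.32 and 4.28 on the SKO arrays and 7.51, 6.40 and 4.56 on the WT arrays. The library labelled WT replicate 3 therefore lies near the STING knockouts and goes against its label. Il10 gave 4.59, 4.87 and 5.47 in IL10KO, 4.60, 4.49 and 4.33 in DKO, 3.82, 3.65 and 3.70 in SKO and 3.65, 3.59 and 3.80 in WT, so the probe set was brighter on all arrays labelled IL10-/-, and the sources used here do not say whether it reads the deleted part of the gene. Other libraries stand apart too. Mean signal of 6 pancreatic acinar markers was 8.67 and 11.62 on WT replicates 1 and 2 and between 4.37 and 5.01 on the other 10 arrays, and that of 7 squamous epithelial markers was 7.36 and 7.37 on IL10KO replicates 2 and 3, 5.55 on IL10KO replicate 1 and 5.89 on DKO replicate 3, with the other 8 arrays between 4.51 and 4.76. The 5 colon markers gave 9.72 to 10.15 in IL10KO, 10.81 to 10.95 in DKO, 10.79 to 10.95 in SKO and 10.73 to 10.99 in WT, and array medians over all probe sets lay between 4.8 and 5.02.

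The contractile genes were lower in IL10KO colon than in WT colon. Of the 33 genes 22 fell, none rose and 11 did not pass the test (limma, Benjamini-Hochberg adjusted p under 0.05 over all genes), while 5.01% of all genes tested were called lower and 3.12% higher. The difference IL10KO minus WT was negative for all 33, between -1.35 and -0.08 log2 units with a median of -0.76, where the median of all genes was 0.03. All 3 IL10KO arrays lay below all 3 WT arrays for 28 of the 33 genes, and below all 9 other arrays for 26, against 16% and 6.81% of all genes tested. In RNA from colon tissue, fewer smooth muscle cells and less RNA per cell cannot be told apart. The squamous and colon marker levels given above also differed on the IL10KO arrays, and the part of tissue make-up in these values was not tested.

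Each IL10KO array showed the deficit. The median gap of the 33 genes to their WT means was -0.89, -0.65 and -0.85 on IL10KO replicates 1, 2 and 3, with 33, 31 and 32 genes below the WT mean. It was 0.19, 0.07 and -0.13 on the DKO arrays, 0.07, 0.01 and 0.19 on the SKO arrays and -0.03, -0.01 and 0.05 on the WT arrays. The genes also scattered more between IL10KO arrays: the median SD over the 33 was 0.25 in IL10KO, 0.18 in DKO, 0.14 in SKO and 0.10 in WT, a description without a test.

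**Figure D1:**
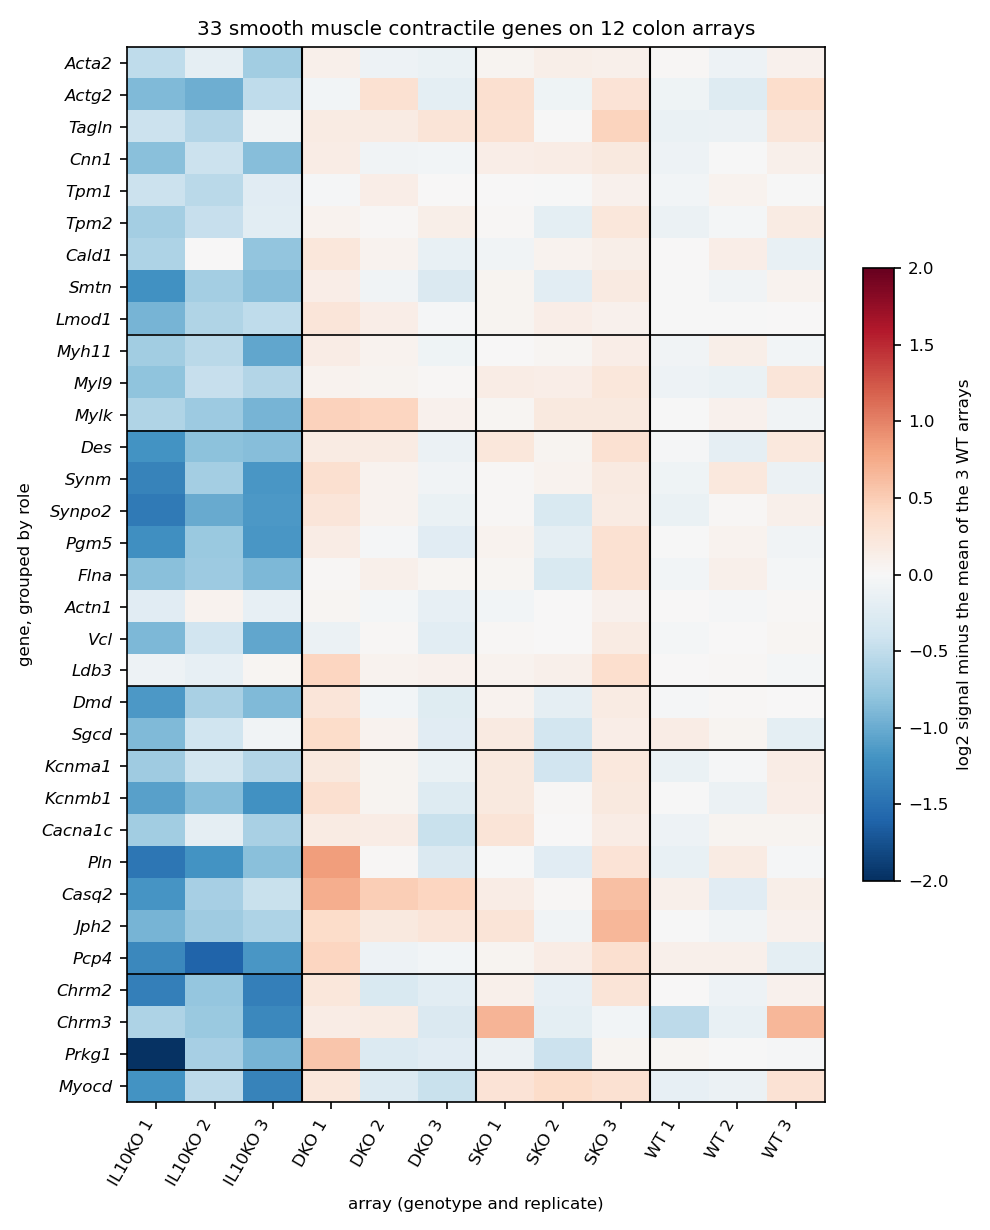
Log2 signal of each of the 33 genes (rows, grouped by role) on each of the 12 arrays (columns, by genotype and replicate), as the difference from the mean of the 3 WT arrays. Blue is lower and red is higher. The 3 IL10KO columns are blue for nearly all rows, with median gaps of -0.89, -0.65 and -0.85, and Actn1 and Ldb3 are the palest rows there.

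The contractile genes were higher in DKO colon than in IL10KO colon. Of the 33 genes 23 rose, none fell and 10 did not pass the test, against 3.34% of all genes called higher and 2.45% called lower (limma, adjusted p under 0.05). The difference DKO minus IL10KO was positive for all 33 on the deposited scale, though -0.06 for Actn1 after quantile normalization, and lay between 0.05 and 1.45 with a median of 0.84, where the median of all genes was -0.04. All 3 DKO arrays lay above all 3 IL10KO arrays for 29 genes, against 13.4% of all genes tested. This comparison and that of IL10KO with WT share the 3 IL10KO arrays, so their values for a gene are given side by side. The 22 genes called lower in IL10KO against WT were all among the 23 called higher in DKO against IL10KO, where 2.78% of all genes were called in both; the remaining gene of the 23 was Tpm1.

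**Figure D2:**
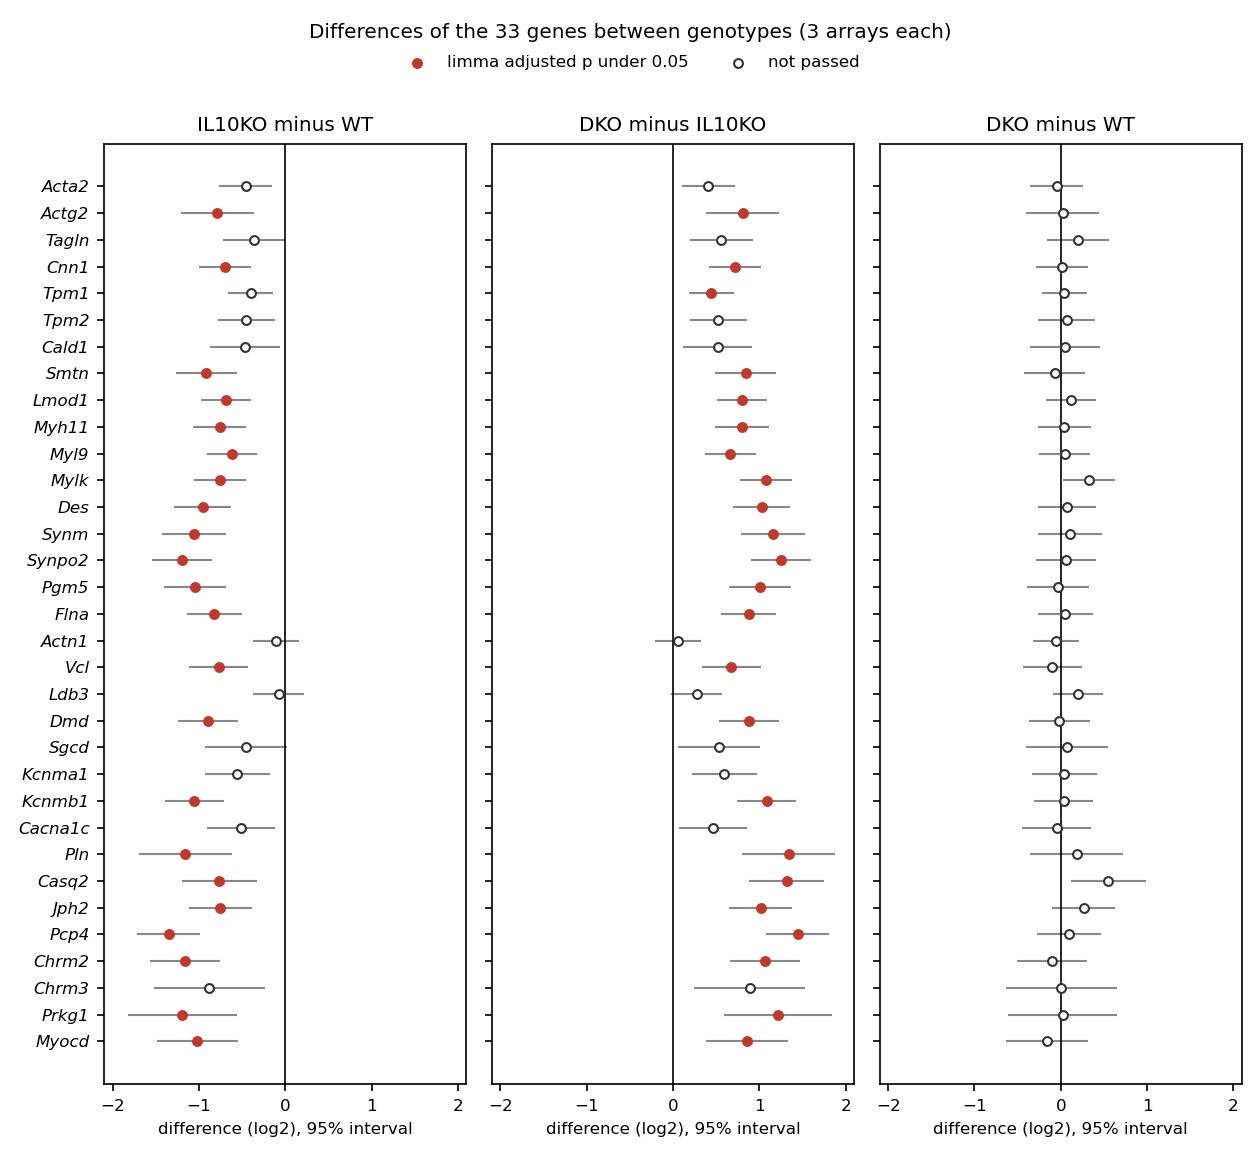
Differences of the 33 genes in log2 units with 95% intervals of limma's fit, for IL10KO minus WT, DKO minus IL10KO and DKO minus WT (3 arrays per genotype). Filled red points passed an adjusted p of 0.05. Points lie left of 0 in the panel of IL10KO minus WT, right of 0 in that of DKO minus IL10KO and around 0, with a median of 0.04, in that of DKO minus WT, where none passed.

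The thin filament genes encode actin and the proteins that line or cap it. Of these 9 genes 4 fell in IL10KO against WT (median difference -0.47) and 5 rose in DKO against IL10KO (median 0.56). For each role class the shares over all genes are those given above, 5.01% called lower and 3.34% called higher. Smtn encodes smoothelin, an actin-binding protein of contractile smooth muscle. It gave 7.58, 8.11 and 7.94 on the IL10KO arrays, 8.93, 8.72 and 8.51 on the DKO arrays, 8.84, 8.58 and 8.96 on the SKO arrays and 8.78, 8.73 and 8.86 on the WT arrays. All 3 IL10KO arrays were below the other 9, and the DKO, SKO and WT arrays overlapped. The difference was -0.91 ± 0.16 for IL10KO minus WT (SE, limma adjusted p = 0.00512) and 0.84 ± 0.16 for DKO minus IL10KO (adjusted p = 0.0102). A dimmer probe set of Smtn moved alike, by -0.63 (adjusted p = 0.0266) and 0.74 (adjusted p = 0.0164). Lmod1, leiomodin, which nucleates actin filaments in smooth muscle, gave 6.62, 6.95 and 7.04 in IL10KO, 7.80, 7.69 and 7.53 in DKO, 7.60, 7.69 and 7.64 in SKO and 7.54, 7.55 and 7.57 in WT. The IL10KO arrays again lay below all others, with differences of -0.68 ± 0.13 (adjusted p = 0.00878) and 0.80 ± 0.13 (adjusted p = 0.00437).

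Actg2, the gamma actin typical of gut smooth muscle, fell by 0.79 in IL10KO against WT (limma adjusted p = 0.0276) and rose by 0.81 in DKO against IL10KO (0.0296), whereas the difference of Acta2, the alpha actin of vascular and visceral smooth muscle, was -0.46 with 0.41 and did not pass in either comparison (0.063 and 0.103). Cnn1, calponin, which binds actin and slows the myosin ATPase, fell by 0.70 (0.0092) and rose by 0.71 (0.0105). Tpm1, a tropomyosin wound along the filament, differed by -0.40 in IL10KO against WT without passing (0.0588), and rose by 0.44 in DKO against IL10KO (0.0498), a call that ended in 10 of the 12 fits without 1 array and in 16 of all 22 alternatives (adjusted p up to 0.171). The remaining thin filament genes did not pass either test: Tpm2, another tropomyosin, differed by -0.45 and 0.52, and Cald1, caldesmon, by -0.47 and 0.52. Tagln, transgelin, an actin-bundling protein used as an early smooth muscle marker, gave 10.32, 10.16 and 10.69 on the IL10KO arrays, 10.92, 10.93 and 11.02 on the DKO arrays, 11.06, 10.76 and 11.20 on the SKO arrays and 10.62, 10.64 and 11.00 on the WT arrays. IL10KO replicate 3 exceeded WT replicates 1 and 2, though the IL10KO arrays were below all DKO and SKO arrays, and the differences were -0.36 (0.187) and 0.56 (0.0656).

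The thick filament class joins the genes of smooth muscle myosin with that of the kinase acting on it. All 3 genes fell in IL10KO against WT, with a median of -0.75, and rose in DKO against IL10KO, with a median of 0.80. Mylk encodes myosin light chain kinase. Its values were 6.92, 6.79 and 6.59 in IL10KO, 7.98, 7.95 and 7.60 in DKO, 7.56, 7.72 and 7.71 in SKO and 7.51, 7.61 and 7.44 in WT. IL10KO was below every other array, and DKO replicates 1 and 2 were the highest of the 12. Mylk differed by -0.75 ± 0.14 in IL10KO against WT (SE, limma adjusted p = 0.0065) and by 1.08 ± 0.14 in DKO against IL10KO (0.000834). Myh11, the smooth muscle myosin heavy chain, gave 11.10, 11.24 and 10.74 on the IL10KO arrays, 11.93, 11.85 and 11.70 on the DKO arrays, 11.80, 11.83 and 11.92 on the SKO arrays and 11.72, 11.90 and 11.74 on the WT arrays. The IL10KO arrays did not overlap with the rest, and the differences were -0.76 ± 0.14 (0.00707) and 0.80 ± 0.14 (0.0064). Myl9, the regulatory light chain that Mylk phosphorylates and whose promoter window is printed above, differed by -0.62 (0.0158) and 0.66 (0.0139).

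Dense bodies and the intermediate filament cytoskeleton tie the filaments together. Of these 8 genes 6 fell in IL10KO against WT (median of the 8 -0.89) and the count was also 6 for those that rose in DKO against IL10KO (median 0.94). Synpo2, synaptopodin 2 or myopodin, an actin-bundling protein of dense bodies and Z-discs, gave 7.46, 7.87 and 7.74 in IL10KO, 9.12, 8.95 and 8.75 in DKO, 8.90, 8.57 and 9.04 in SKO and 8.75, 8.90 and 8.99 in WT. The gap between the highest IL10KO array and the lowest other array was wider than the whole range within any genotype. Synpo2 differed by -1.19 ± 0.16 for IL10KO minus WT (SE, limma adjusted p = 0.000995) and by 1.25 ± 0.16 for DKO minus IL10KO (0.000776). Pgm5, aciculin, an adhesion protein that binds dystrophin, gave 8.85, 9.34 and 8.92 on the IL10KO arrays, 10.22, 10.05 and 9.86 on the DKO arrays, 10.14, 9.89 and 10.38 on the SKO arrays and 10.07, 10.14 and 10.01 on the WT arrays. Its IL10KO arrays also lay below all 9 others, at -1.04 ± 0.17 (0.00272) and 1.01 ± 0.17 (0.00374).

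Des, desmin, the muscle intermediate filament, fell by 0.96 in IL10KO against WT (limma adjusted p = 0.0029) and rose by 1.03 in DKO against IL10KO (0.0023), and Synm, synemin, which joins desmin to membrane complexes, fell by 1.05 (0.0032) and rose by 1.16 (0.0022). Flna, filamin A, an actin crosslinker found in many cell types, fell by 0.82 (0.00538) and rose by 0.88 (0.00462). Vcl, vinculin, an adhesion plaque protein with a CArG box in its window, fell by 0.77 (0.0109) and rose by 0.68 (0.025). The other members of the class were Actn1 and Ldb3. Actn1, an alpha-actinin made in many cell types, gave 10.08, 10.37 and 10.14 in IL10KO, 10.35, 10.26 and 10.14 in DKO, 10.25, 10.32 and 10.39 in SKO and 10.31, 10.28 and 10.32 in WT. The genotypes overlapped, and its differences of -0.11 (95% interval -0.37 to 0.16, adjusted p = 0.604) and 0.05 (-0.21 to 0.32, 0.808) were small beside those of the class. Ldb3, best known as a Z-disc protein of striated muscle, differed by -0.08 (0.751) and 0.27 (0.234).

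Of the dystrophin complex genes, Dmd passed and Sgcd did not. Dmd, dystrophin, gave 6.02, 6.52 and 6.29 in IL10KO, 7.41, 7.12 and 6.94 in DKO, 7.25, 6.99 and 7.34 in SKO and 7.14, 7.19 and 7.18 in WT. No IL10KO array reached any other array, and Dmd differed by -0.90 ± 0.16 in IL10KO against WT (SE, limma adjusted p = 0.00565) and by 0.88 ± 0.16 in DKO against IL10KO (0.0079). Sgcd, delta-sarcoglycan, a membrane partner of dystrophin, gave 5.14, 5.63 and 5.95 on the IL10KO arrays, 6.40, 6.10 and 5.81 on the DKO arrays, 6.21, 5.66 and 6.17 on the SKO arrays and 6.18, 6.08 and 5.83 on the WT arrays. IL10KO replicate 3 lay within the range of the other genotypes, and the differences were -0.45 (0.212) and 0.53 (0.163).

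Among the 7 genes of calcium handling and excitability 5 fell in IL10KO against WT (median of the 7 -0.76) and the count was also 5 for those that rose in DKO against IL10KO (median 1.09). Pcp4, a small regulator of calmodulin, had the largest difference of the 33 in both comparisons. It gave 7.77, 7.47 and 7.90 in IL10KO, 9.50, 8.97 and 9.02 in DKO, 9.12, 9.22 and 9.38 in SKO and 9.17, 9.16 and 8.87 in WT. The IL10KO arrays stood clear of the other 9, at -1.35 ± 0.17 for IL10KO minus WT (SE, limma adjusted p = 0.000531), a 2.55-fold lower signal, and at 1.45 ± 0.17 for DKO minus IL10KO (0.00043), a 2.72-fold higher signal. Kcnmb1, the accessory subunit that makes the smooth muscle BK potassium channel more sensitive to calcium, gave 7.50, 7.73 and 7.37 on the IL10KO arrays, 8.90, 8.64 and 8.32 on the DKO arrays, 8.78, 8.60 and 8.78 on the SKO arrays and 8.58, 8.46 and 8.72 on the WT arrays. The IL10KO arrays were lowest, at -1.05 ± 0.16 (0.00197) and 1.09 ± 0.16 (0.00198). Kcnma1, the pore of the same channel, differed by -0.55 (0.0666) and 0.59 (0.0629) without passing, and a dimmer probe set of the gene by -0.03 and 0.00.

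The genes of the calcium store were among those that moved. Casq2, a calsequestrin that buffers calcium in the sarcoplasmic reticulum of heart and smooth muscle, gave 4.95, 5.48 and 5.69 in IL10KO, 6.86, 6.63 and 6.57 in DKO, 6.29, 6.16 and 6.73 in SKO and 6.24, 5.91 and 6.25 in WT. IL10KO was lowest, and all DKO arrays lay above all WT arrays. Casq2 differed by -0.76 ± 0.20 in IL10KO against WT (SE, limma adjusted p = 0.0337) and by 1.32 ± 0.20 in DKO against IL10KO (0.00249). Jph2, junctophilin 2, which holds the store close to the plasma membrane, gave 5.62, 5.85 and 5.95 on the IL10KO arrays, 6.92, 6.75 and 6.80 on the DKO arrays, 6.82, 6.49 and 7.22 on the SKO arrays and 6.56, 6.48 and 6.64 on the WT arrays. The IL10KO arrays lay below all others, at -0.75 ± 0.17 (0.0169) and 1.02 ± 0.17 (0.00404). Pln, phospholamban, the inhibitor of the store's calcium pump, differed by -1.16 (0.0141) and 1.34 (0.00815). Cacna1c, the pore of the L-type calcium channel, differed by -0.51 (0.0992) and 0.46 (0.144) and did not pass.

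**Figure D3:**
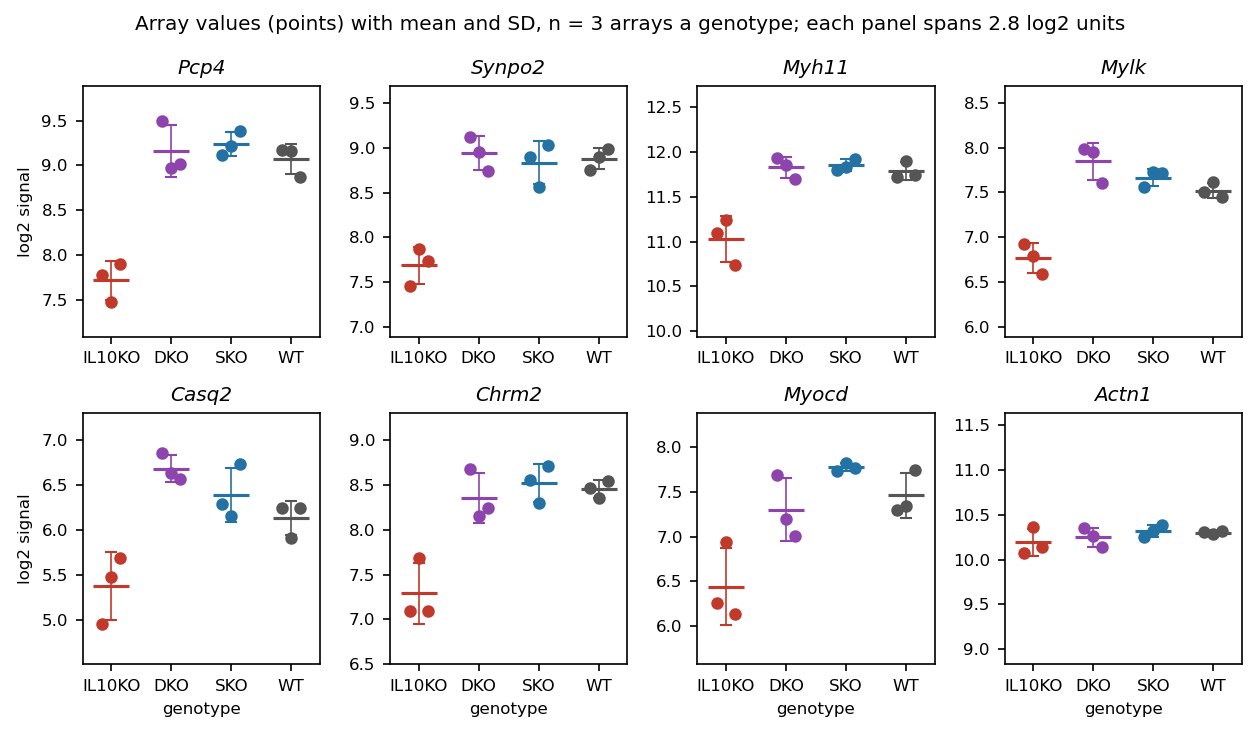
Log2 signal of 8 of the genes on every array (points), with the mean and SD of the 3 arrays of each genotype; each panel spans the same range. For Pcp4, Synpo2, Myh11, Mylk, Casq2, Chrm2 and Myocd all IL10KO points lie below the points of DKO, SKO and WT, while for Actn1 the genotypes overlap.

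Of the receptors and the cGMP kinase, Chrm2 and Prkg1 passed in both comparisons. Chrm2 encodes the M2 muscarinic receptor, the most abundant acetylcholine receptor of gut muscle. It gave 7.09, 7.68 and 7.09 in IL10KO, 8.68, 8.15 and 8.25 in DKO, 8.55, 8.30 and 8.71 in SKO and 8.47, 8.35 and 8.55 in WT. All IL10KO arrays were below the rest, at -1.17 ± 0.19 for IL10KO minus WT (SE, limma adjusted p = 0.00291) and 1.07 ± 0.19 for DKO minus IL10KO (0.00588). Chrm3, the M3 receptor that couples to calcium release, differed by -0.88 ± 0.30 (0.0834) and 0.89 ± 0.30 (0.0933) without passing, with the widest spread of the list among WT arrays (SD 0.61, n = 3). Prkg1, the cGMP-dependent kinase through which nitric oxide relaxes smooth muscle, gave 4.68, 5.99 and 5.72 on the IL10KO arrays, 7.21, 6.38 and 6.43 on the DKO arrays, 6.54, 6.23 and 6.70 on the SKO arrays and 6.69, 6.64 and 6.63 on the WT arrays. IL10KO replicate 1 was far below its group, and the differences were -1.19 ± 0.29 (0.0252) and 1.21 ± 0.29 (0.0282). Without IL10KO replicate 1, Prkg1 differed by -0.80 (0.0612) and 0.82 (0.0629).

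Myocd encodes myocardin, the coactivator of SRF. It gave 6.26, 6.94 and 6.13 in IL10KO, 7.69, 7.19 and 7.01 in DKO, 7.73, 7.82 and 7.77 in SKO and 7.30, 7.34 and 7.75 in WT. IL10KO replicate 2 came close to DKO replicate 3 without reaching it, and all SKO arrays lay above all DKO arrays. Myocd differed by -1.02 ± 0.22 in IL10KO against WT (SE, limma adjusted p = 0.0138) and by 0.86 ± 0.22 in DKO against IL10KO (0.0367). Its call in DKO against IL10KO ended in 6 of the 12 fits that left out 1 array, with 0.66 (0.162) without DKO replicate 1.

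The calls of most genes did not hang on 1 array. Of the 22 calls in IL10KO against WT 15 held whichever array was left out, and those of Actg2, Myl9, Pln, Casq2, Jph2, Prkg1 and Myocd were lost in at least 1 such fit. Of the 23 in DKO against IL10KO 15 held, and those of Actg2, Cnn1, Tpm1, Smtn, Myl9, Vcl, Prkg1 and Myocd were lost. Without the library labelled WT replicate 3 the number called lower in IL10KO was 16. It was 23 without the IL10KO arrays of high squamous signal (replicates 2 and 3) and 3 without the WT arrays of high pancreatic signal (replicates 1 and 2). In the last of these WT rests on replicate 3 alone, and in the one before it IL10KO on replicate 1 alone, each assumed to vary like the other groups. Every gene kept the sign of its IL10KO minus WT difference in those fits, and the median difference stayed between -0.68 and -0.89 over all the alternatives run. The number called higher in DKO against IL10KO was 15 without DKO replicate 1, the fewest of the fits without 1 array.

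The remaining comparisons gave no call. In DKO against WT none of the 33 genes passed limma's test, where 0.0406% of all genes were called higher and 0.00451% lower. At an unadjusted p under 0.05 the count was 2 higher and 0 lower, against 335 higher and 313 lower of all 22180 genes. The differences lay between -0.16 and 0.55 with a median of 0.04, and the 95% intervals of the 33 reached from -0.63 to 0.98. The values furthest from 0 by p were those of Casq2, 0.55 (95% interval 0.12 to 0.98, adjusted p = 1), and Mylk, 0.32 (0.02 to 0.63), both higher in DKO. The intervals bound the differences and do not show that DKO and WT levels are equal.

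In DKO against SKO no gene passed, with 0.0361% of all genes called higher and 0.00902% lower (limma). At an unadjusted p under 0.05 the count was 0 higher and 1 lower, against 471 higher and 588 lower of all 22180 genes. That gene was Myocd, at -0.48 (95% interval -0.95 to -0.00, adjusted p = 0.998). The median difference of the 33 was -0.04 and the range -0.48 to 0.29. In SKO against WT none passed either, at a background of 0% in each direction. None had an unadjusted p under 0.05, against 244 higher and 210 lower of all 22180 genes. The median difference was 0.09, and the range -0.16 to 0.31. The smallest p values were those of Jph2 (0.28), Tagln (0.25) and Myocd (0.31), all higher in SKO, and the 95% intervals of the 33 reached from -0.79 to 0.79.

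The effect of IL-10 loss was set between STING genotypes as (DKO minus SKO) minus (IL10KO minus WT). With IL10KO minus WT negative for all 33 genes, a positive value means that the gene was lowered less, or not lowered, without STING. DKO minus SKO was itself positive for 14 of the 33. The difference of effects was positive for all 33 genes on the deposited scale, with a median of 0.73, though -0.11 for Actn1 after quantile normalization. Over all genes the median was -0.04, and 10127 of 22180 were positive. The difference of effects contains IL10KO minus WT and shares its arrays. Of the 33 genes 2 passed limma's test, against 0.28% of all genes called higher and 0.365% lower. These were Synpo2, at 1.298 ± 0.23 (SE, adjusted p = 0.0212), and Pcp4, at 1.27 ± 0.24 (adjusted p = 0.0319). At an unadjusted p under 0.05 the count was 24 higher and 0 lower, against 1742 higher and 1738 lower of all 22180 genes. Neither call held in every fit without 1 array: the number of genes that passed ran between 0 and 8, and it was 0 without DKO replicate 1, DKO replicate 2, WT replicate 2, SKO replicate 1 or SKO replicate 2.

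Beyond the 33 genes, 62 of 68 listed genes of the same machinery were measured. In IL10KO against WT 16 fell and none rose (limma, median -0.31), and in DKO against IL10KO 16 rose and none fell (median 0.31). Over all genes tested, 5.01% were called lower in the first comparison and 3.34% higher in the second. The difference was positive for 13 of the 62 in IL10KO against WT and negative for 15 in DKO against IL10KO. Among SRF, its cofactors and other mesenchymal transcription factors none of 12 passed in IL10KO against WT. In DKO against IL10KO 1 of them rose, Klf4, a zinc finger factor known to restrain the contractile programme, by 0.76 (adjusted p = 0.0184). Srf itself differed by -0.19 and 0.16, and the myocardin-related factors Mrtfa and Mrtfb by -0.55 and -0.59 in IL10KO against WT (0.0881 and 0.071), none of them passing. Of 12 genes listed with myosin phosphatase, the enzyme that reverses light chain phosphorylation, 2 fell in IL10KO against WT and rose in DKO against IL10KO. These were the targeting subunits Ppp1r12a, at -0.72 and 0.63, and Ppp1r12b, at -0.66 and 0.61. Ppp1r12c, another targeting subunit, differed by -0.08 and 0.12, and the light chains Myl6 and Myl12a by 0.53 and 0.95 in IL10KO against WT, none of them passing.

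Of 13 further genes of calcium stores, channels and cGMP 7 fell in IL10KO against WT and 6 rose in DKO against IL10KO. They included Tacr2, the tachykinin receptor of gut muscle, which gave 6.31, 6.98 and 6.67 on the IL10KO arrays, 8.29, 7.50 and 7.47 on the DKO arrays, 7.97, 7.74 and 7.98 on the SKO arrays and 7.76, 7.57 and 7.85 on the WT arrays. The IL10KO arrays were below all others, at -1.07 (limma adjusted p = 0.0106) and 1.10 (0.0113). Mrvi1, a substrate of the cGMP kinase at the calcium store, differed by -0.68 and 0.78, Pde5a, which degrades cGMP, by -0.66 and 0.67, the calcium channel subunit Cacnb2 by -0.62 and 0.56, and the guanylate cyclase subunit Gucy1a1 by -0.60 and 0.70, each passing in both. Kcnj8, Abcc9 and Trpc6 of the same list differed in the opposite direction without passing, by 0.63, 0.27 and 0.33 in IL10KO against WT. In DKO against IL10KO they differed by -0.66, -0.24 and -0.30. Atp2a2, a calcium pump of the store in that list, differed by -0.05 in IL10KO against WT and by -0.04 in DKO against IL10KO without passing. Of 25 adhesion, caveolar and dystrophin partner genes 7 fell and 7 rose, led by the integrin subunit Itga8 (-1.02 and 1.01), the adhesion protein Tns1 (-0.93 and 0.87), the actin-binding protein Nexn (-0.92 and 0.88) and the caveolar protein Cav1 (-0.90 and 0.71). The pathway counts rested more on single arrays than those of the 33 genes: 7 to 23 fell and 4 to 19 rose with 1 array left out, and none fell without WT replicates 1 and 2.

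**Figure D4:**
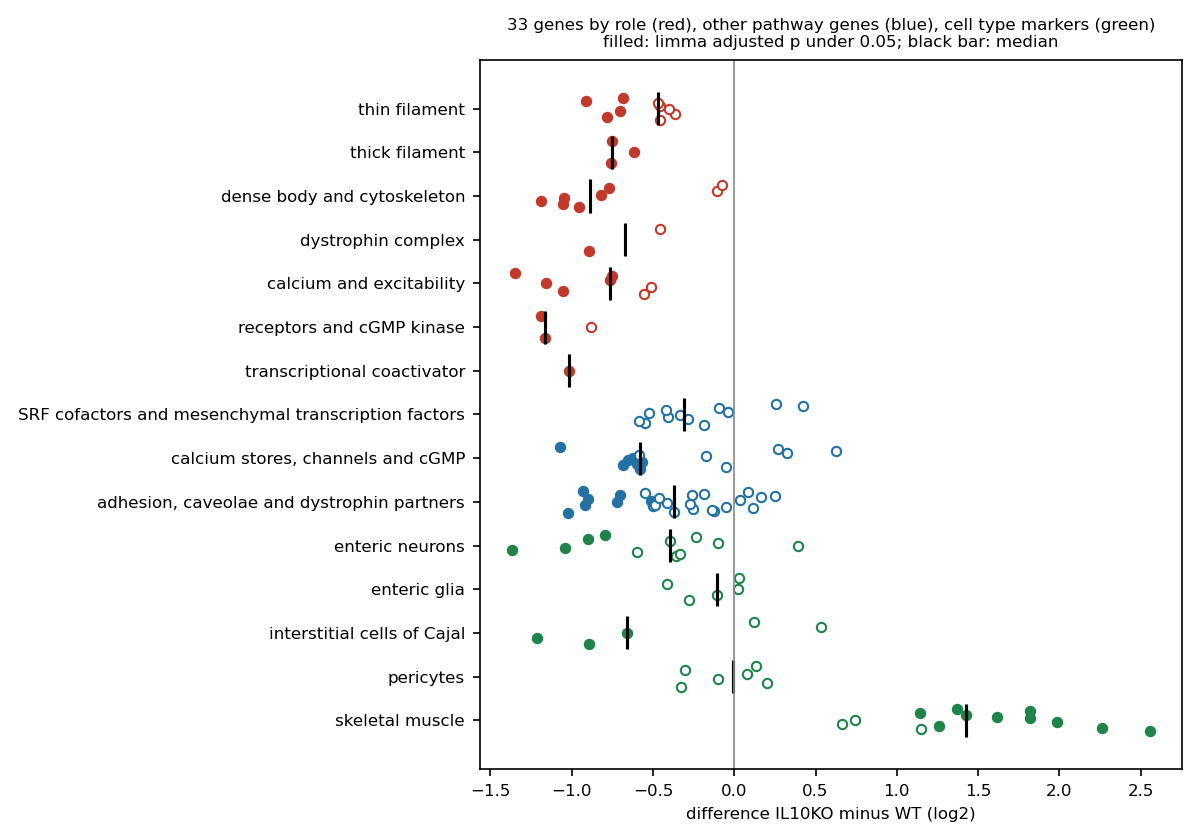
Difference IL10KO minus WT (log2) of the 33 genes by role (red), of 3 lists of other pathway genes (blue) and of marker lists of neighbouring cell types (green), 1 point per gene. Filled points passed limma's adjusted p of 0.05 and black bars are medians. The red groups lie left of 0, pericyte markers centre on -0.01 and skeletal muscle markers lie right of 0.

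Markers of cell types embedded in or beside the muscle moved to differing degrees. Of 11 enteric neuron markers 4 fell in IL10KO against WT (limma), Snap25 by 1.37, Syt1 by 1.04, Vip by 0.90 and Prph by 0.79. Over all genes tested 5.01% were called lower. Ret differed in the opposite direction without passing, by 0.39, and by -0.42 in DKO against IL10KO, while Chat differed by -0.10 and -0.03. The mean level of the 11 neuron markers was 5.47 to 5.70 in IL10KO, 5.98 to 6.17 in DKO, 6.10 to 6.25 in SKO and 5.98 to 6.22 in WT. Of 5 markers of interstitial cells of Cajal, the pacemaker cells of gut muscle, 3 fell: Kit by 0.90, Ano1 by 1.21 and Etv1 by 0.66. The others did not pass and differed in the opposite direction, Gja1 by 0.54 and Hcn4 by 0.12 in IL10KO against WT and by -0.69 and -0.24 in DKO against IL10KO. The mean of those 5 was 6.44 to 7.0 in IL10KO, 6.86 to 7.16 in DKO, 7.15 to 7.25 in SKO and 7.07 to 7.26 in WT. In DKO against IL10KO 3 of the neuron markers and 2 of the Cajal cell markers rose, and neither list gave a call in the opposite direction. Without WT replicates 1 and 2 the numbers that fell in IL10KO against WT were 1 neuron marker and 0 Cajal cell markers.

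None of the 5 glial, 6 pericyte, 6 endothelial and 5 mesothelial markers passed in either comparison. Pericytes share contractile genes with smooth muscle, and the mean of their markers was 6.56 to 6.91 in IL10KO, 6.77 to 6.93 in DKO, 6.77 to 6.88 in SKO and 6.69 to 6.89 in WT, with all genotypes overlapping. Of 8 fibroblast markers 1 rose in IL10KO against WT, and of 10 epithelial markers 1 fell, where 3.12% of all genes were called higher and 5.01% lower. Leukocyte markers gave 6.78 to 7.67 in IL10KO, 6.29 to 6.44 in DKO, 6.03 to 6.33 in SKO and 6.03 to 6.69 in WT, and 2 of 7 rose in IL10KO. Their differences IL10KO minus WT were uneven, between -0.03 and 4.41 with a median of 0.32, and 5 did not pass. The part of any of these cell types in the values of the contractile genes was not tested.

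**Figure D5:**
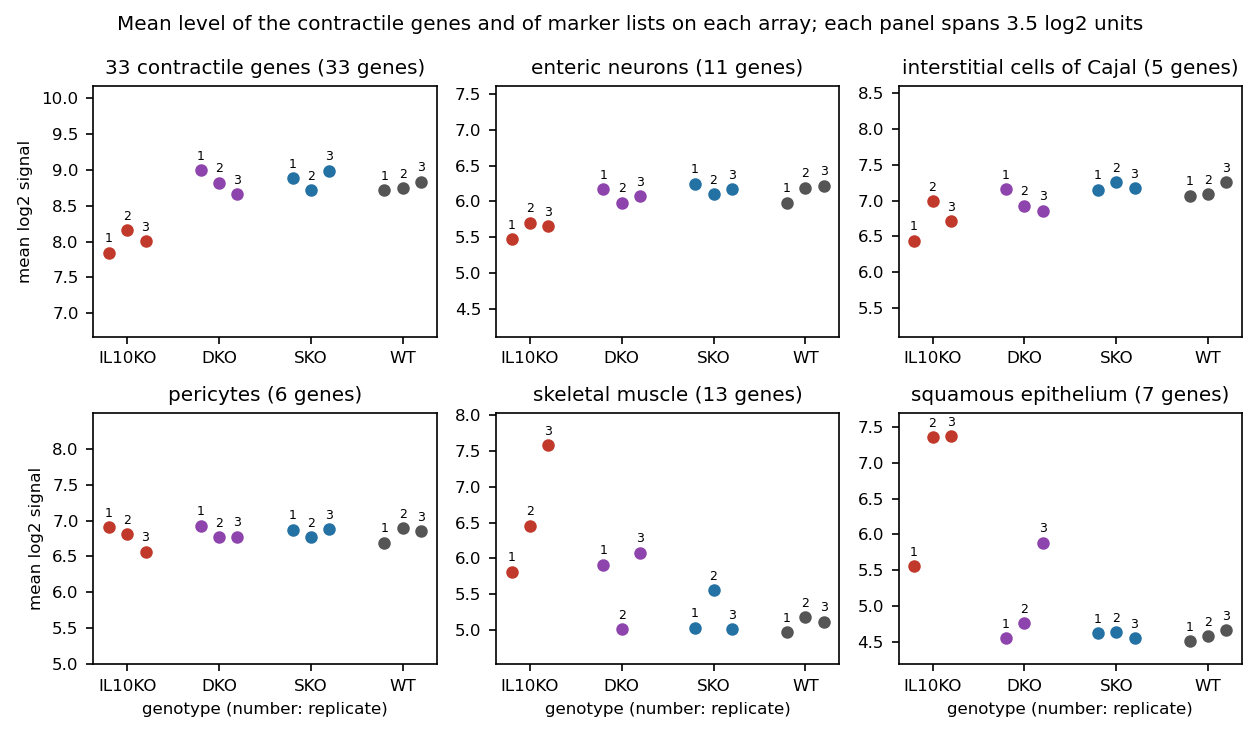
Mean log2 signal of the 33 genes and of 5 marker lists on each array, by genotype, with the replicate number beside each point; each panel spans the same range. The 33 genes give 7.84 to 8.16 in IL10KO, 8.66 to 9.0 in DKO, 8.72 to 8.99 in SKO and 8.71 to 8.83 in WT, while skeletal and squamous markers are highest on IL10KO replicates 2 and 3.

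Skeletal muscle markers went the other way. Of 13 skeletal muscle markers 10 rose in IL10KO against WT and 3 fell in DKO against IL10KO (limma), with the skeletal actin Acta1 at 2.56 and -2.07. Over all genes tested, 3.12% were called higher in the first comparison and 2.45% lower in the second. The list mean was 5.82, 6.45 and 7.58 on the IL10KO arrays, 5.91, 5.01 and 6.08 on the DKO arrays, 5.04, 5.55 and 5.01 on the SKO arrays and 4.97, 5.18 and 5.12 on the WT arrays, so it was uneven within IL10KO and DKO. The mean of the 33 contractile genes was 7.84, 8.16 and 8.01 in IL10KO, 9.0, 8.82 and 8.66 in DKO, 8.88, 8.72 and 8.99 in SKO and 8.71, 8.75 and 8.83 in WT, with IL10KO below all others. The number of skeletal markers that rose in IL10KO was 4 without IL10KO replicate 3, 2 without WT replicate 1, 3 without WT replicate 2, 5 without WT replicate 3 and 0 without WT replicates 1 and 2. None of 5 cardiac markers passed. Genes of the list that striated muscle also expresses include Des, Dmd, Ldb3, Synpo2, Pln, Casq2 and Jph2, and the part of striated muscle in their values was not tested.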

How the data were processed

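The deposited table of the authors holds log2 signals of 41345 probe sets on 12 arrays, with 0 columns from outside the series. The submitters' processing notes name Affymetrix Expression Console 1.3.1.187, and each array took 300 ng of RNA per the labels' protocols. The log2 scale is inferred from the values; background correction, normalization and genome build were not given in the sources used here. Of 25335 annotated probe sets 23521 name 1 gene, 1814 name several and were not used.

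Genotypes were taken from the labels. Replicate numbers follow sample order and only name arrays, and the labels' dates were not taken as batches. Values were used as deposited and fitted for all 22180 genes together with limma 3.58.1 in R 4.3.3 (statmod 1.5.0), with a mean per genotype, 8 residual and 5.56 prior degrees of freedom, moderated 2-sided tests and Benjamini-Hochberg adjustment over all genes, called under 0.05. Intervals are 95% intervals of that fit. No filter on dim genes was applied, and steps were tested on simulated data. Precision is limited by having 3 arrays per genotype.

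The genes and lists were chosen with earlier results of these data known. All array values are given for the 2 genes of smallest p per role in IL10KO against WT and the 3 of smallest p in each other comparison, and Actn1, Tacr2 and the targeted genes were added after their values were seen. Of each pathway list at most 4 called genes of largest difference per comparison are named. Srf, Mrtfa, Mrtfb, Ppp1r12c, Myl6, Myl12a, Kcnj8, Abcc9, Trpc6, Atp2a2 and the marker genes named were added after their values were seen. Some genes of the lists were not analysed here. Alternatives were array centring on medians, quantile normalization, a filter on the dimmest 33.3% of genes, averaged probe sets per gene, a trended and robust prior, array weights, a 2-fold minimum, only the genotypes compared, and leaving out arrays. Promoter windows and positions are RefSeq's (GRCm38.p6), with windows for 29 of the 33 genes, none for Myocd, Myh11, Tagln and Actg2.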

Additional observations from a re-analysis of the deposited data

Results flagged for a closer look

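The effect of IL-10 loss on Synpo2 differed between mice with and without STING: (DKO minus SKO) minus (IL10KO minus WT) was 1.298 ± 0.23 log2 units (SE, limma adjusted p = 0.0212), over 3 arrays per genotype. Synpo2 was lower in IL10KO than in WT on all 3 IL10KO arrays, while the DKO and SKO arrays overlapped. The value ranged from 0.995 to 1.53 over 21 alternatives, with an adjusted p between 0.00882 and 0.198, and passed in all but 7 of them.

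The effect on Pcp4 differed in the same direction, by 1.27 ± 0.24 (limma adjusted p = 0.0319). Pcp4 ranged from 1.08 to 1.39 over 21 alternatives, with an adjusted p between 0.0155 and 0.418, and its call was lost in 10 of them. Both calls were lost without WT replicates 1 and 2.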

How the results depend on the processing

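No paired analysis was possible because the replicate numbers follow sample order and pair nothing. Of the 22 genes lower in IL10KO against WT 9 also differed by at least 2-fold; 3 were called without WT replicates 1 and 2, 12 without WT replicate 3, IL10KO replicate 1 and SKO replicate 2, and 16 to 25 with 1 array left out. Of the 23 genes higher in DKO against IL10KO 12 differed by at least 2-fold; 15 were called with only the genotypes compared, and 15 to 26 with 1 array left out. For the difference of the IL-10 effect (2 genes), 1 passed after quantile normalization, 5 with a trended and robust prior, 7 with array weights, 11 without IL10KO replicates 2 and 3, 0 without WT replicates 1 and 2, 0 without the 3 libraries above and 0 to 8 with 1 array left out. Counts for DKO against WT, DKO against SKO and SKO against WT were 0 in every alternative run.

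Of the pathway genes 16 fell in IL10KO against WT: 2 at 2-fold or more, 8 with only the genotypes compared, 0 without WT replicates 1 and 2, 7 without the 3 libraries and 7 to 23 with 1 array left out. In DKO against IL10KO 16 rose: 2 at 2-fold or more, 4 with only the genotypes compared, 10 without WT replicates 1 and 2, 9 without the 3 libraries and 4 to 19 with 1 array left out. Actn1 turned sign in DKO minus IL10KO after quantile normalization (-0.0597) and without the 3 libraries (-0.0046), and ranged from -0.0046 to 0.1407 with 1 array left out. In the difference of the IL-10 effect Actn1 turned to -0.11 after quantile normalization and -0.032 without the 3 libraries, and ranged from -0.0215 to 0.1238 with 1 array left out, Ldb3 from -0.0106 to 0.1889. Neither gene was called. Fits with fewer arrays or genotypes also have fewer residual degrees of freedom, and otherwise the cause was not tested. With no detection calls in the table, no dim signal could be called absent.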
